A study of Mus musculus with 6 samples.

Results

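The genes described are 10 components and targets of the mammalian circadian clock, Ciart, Per1, Per2, Cry1, Nr1d1, Nr1d2, Arntl, Clock, Dbp and Tef, found by gene symbol among the 55487 genes listed for each library. They were chosen with the result of the itaconate comparison in view, so their levels and differences are given as a description. Where one of them is said to be called, it lay past the threshold of the fit over all genes, which is no independent evidence for a gene chosen this way. RNA-seq libraries were made from CD8+ T cells, the T lymphocytes that kill infected and tumour cells, of C57BL/6 mice. The cells of 3 libraries had been given 5 mM itaconate for 48 h, and those of 3 libraries had been given NaCl as the control for the same time. Itaconate is a small metabolite that macrophages produce from a Krebs cycle intermediate once they are activated. The labels give neither the age or number of mice, nor a clock time, nor a step that would synchronise the cells, so each value is a snapshot of cells whose phase is not known. They also do not say that the replicates were independent cultures or animals, and the p-values below therefore speak only of variation between libraries.

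The clock is a feedback loop of transcription. The proteins of Arntl (BMAL1) and Clock pair up, bind E-box sequences and activate the Per, Cry, Nr1d and Ciart genes, whose products then act back on that pair or on the Arntl gene. REV-ERB receptors, made from Nr1d1 and Nr1d2, repress Arntl through a different element, and the PAR bZIP factors DBP and TEF carry rhythm to output genes through D-boxes. The loop runs in most cell types, T cells included, but cells of a culture drift out of phase unless they are synchronised.

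Of 12350 genes that passed the expression filter, 1487 (12.0%) differed between itaconate and control libraries at an adjusted p under 0.05, 825 of them higher (6.68%) and 662 lower (5.36%) in itaconate-treated cells. All 10 clock genes passed the filter, with 61 to 1770 rounded counts per library. Of these, 2 were called, both lower, a share on which nothing rests because the genes were chosen from this comparison. The median log2 fold change of the 10 genes was -0.02, and that of all tested genes was 0.01. Total expected counts were 18280217 to 23609543 in itaconate libraries and 20469874 to 31643408 in control libraries. The 8 CD8 T cell markers (Cd8a, Cd8b1, Cd3d, Cd3e, Cd3g, Cd2, Cd28 and Lck) summed to 2319 to 2338 counts scaled to library size (CPM) in itaconate libraries and 2094 to 2163 CPM in control libraries. Cd8a was higher and Cd28 was lower in itaconate libraries, and all 8 were above 100 CPM in every library. The 4 CD4 and regulatory T cell markers summed to 18.9 to 23.5 CPM in itaconate libraries and 8.60 to 11.7 CPM in control libraries. Of them 1, Foxp3, was called higher, with a mean of 12.4 CPM in itaconate and 1.87 CPM in control libraries. Cd4 averaged 3.72 CPM in itaconate and 3.22 CPM in control libraries, and Cd4, Cd40lg and Zbtb7b were not called. The B cell list summed to 9.996 to 21.5 CPM in itaconate libraries and 11.9 to 18.5 CPM in control libraries. The myeloid list summed to 0.555 to 3.82 CPM in itaconate libraries and 0.445 to 1.45 CPM in control libraries, with Ly6g at 0 throughout. The dendritic cell list summed to 1.89 to 3.35 CPM in itaconate libraries and 1.69 to 2.98 CPM in control libraries, with Siglech at 0 throughout. The ranges of the B cell, myeloid and dendritic cell lists overlapped between the groups. The erythroid list summed to 0.129 to 4.27 CPM in itaconate libraries and 0.780 to 1.26 CPM in control libraries. The NK cell list, carried almost wholly by Eomes, which CD8 T cells also express, summed to 109.9 to 138.6 CPM in itaconate libraries and 96.5 to 108.5 CPM in control libraries, and Eomes was called higher. The part of these markers in the levels of the clock genes was not tested.

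Ciart had the largest fitted difference of the 10 genes. It encodes CHRONO, a repressor that binds the BMAL1 and CLOCK pair and dampens its activity. The gene lies on chromosome 3 (chr3:95878503-95882251, minus strand, GRCm38). It had 6.33, 7.38 and 8.41 CPM in itaconate libraries 1, 2 and 3, against 15.6, 16.9 and 13.9 CPM in control libraries 1, 2 and 3. Every itaconate library lay below every control library, and the highest itaconate value was well under the lowest control value. The means were 7.37 ± 1.04 CPM in itaconate and 15.5 ± 1.52 CPM in control libraries (SD, n = 3 each). The fitted log2 fold change, itaconate over control, was -1.06 ± 0.13 (SE), so that Ciart mRNA fell by 52.01%. The rounded counts behind these values were 128, 133 and 196 in itaconate and 420, 350 and 437 in control libraries. In RNA from a bulk culture, fewer cells that express a gene and less mRNA per cell cannot be told apart. Ciart was called lower under all 13 alternative settings, among them each in which 1 library was left out, with log2 fold changes of -1.17 to -0.88. An annotated antisense gene, C920021L13Rik, overlaps the Ciart gene but shares 0 of its exon bases.

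**Figure D1:**
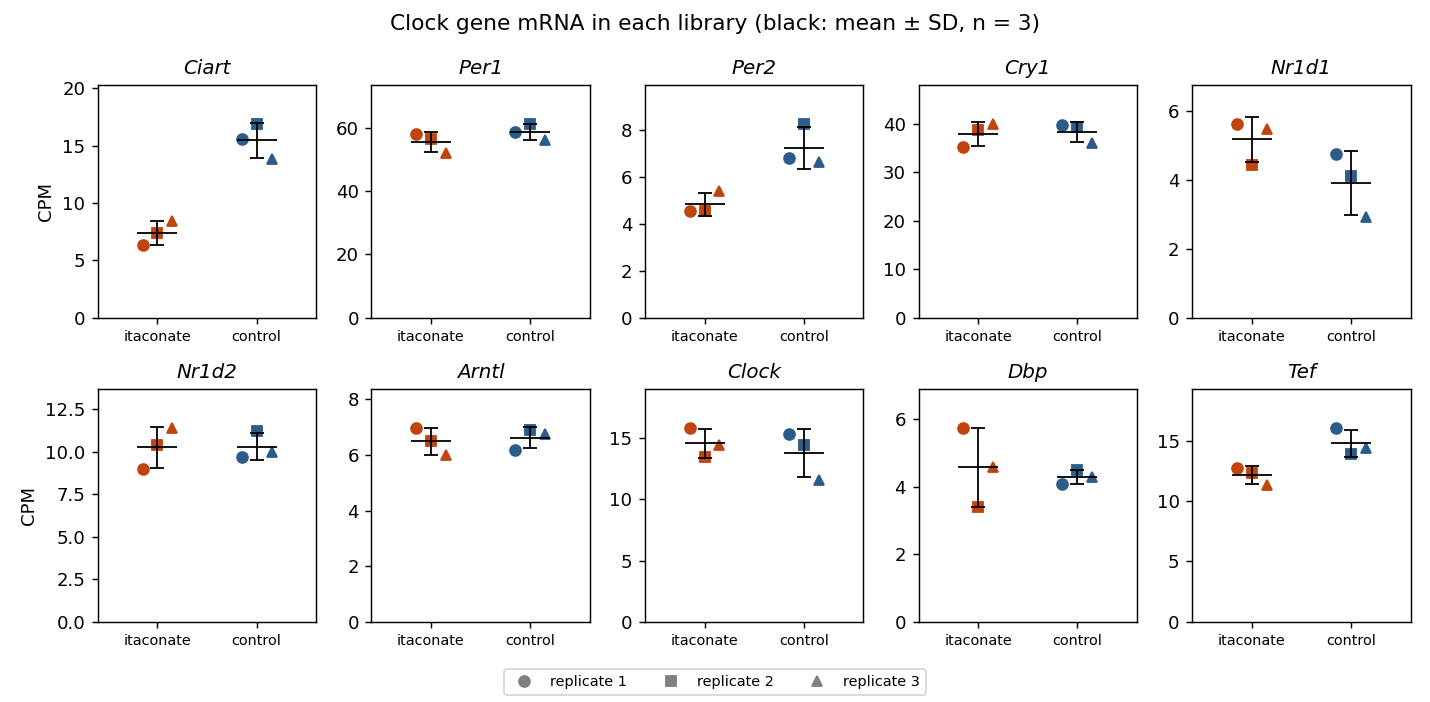
Level of each of the 10 clock genes in CPM (vertical axes, starting at 0) in the 3 itaconate (left, orange) and 3 control libraries (right, blue); marker shapes give the replicate number, and black lines the mean ± SD. The itaconate and control points do not overlap for Ciart, Per2 and Tef, and they overlap for the other 7 genes.

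The authors' quantification also gives an estimated length for the transcripts of each gene, and a difference in the make-up of Ciart transcripts was not tested. The abundance-weighted length of Ciart transcripts was 1197, 1132 and 1226 bases in itaconate libraries, against 1236, 1354 and 1379 bases in control libraries. The itaconate values were all shorter, though the gap between the highest itaconate and the lowest control value was small. Ciart was the only 1 of the 10 genes whose lengths did not overlap between groups, and across all tested genes the lengths did not overlap in 8.48%, being shorter in itaconate libraries in 3.91% and longer in 4.57%. The 6 annotated Ciart transcripts are 372 to 1939 bases long, and no transcript-level values were used. With each library's effective length as an offset in the fit, the log2 fold change of Ciart was -0.88.

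The Ciart promoter carries the letters of the BMAL1 and CLOCK element 3 times, and it is printed because Ciart is the gene on which the description turns. The RefSeq table of GRCm38.p6 gives 1 start site for Ciart, at position 95882228 of chromosome 3. The 250 bases before it (chr3:95882229-95882478, minus strand) are written 5′ to 3′, with matches to the E-box CACGTG in capitals:
Ciart: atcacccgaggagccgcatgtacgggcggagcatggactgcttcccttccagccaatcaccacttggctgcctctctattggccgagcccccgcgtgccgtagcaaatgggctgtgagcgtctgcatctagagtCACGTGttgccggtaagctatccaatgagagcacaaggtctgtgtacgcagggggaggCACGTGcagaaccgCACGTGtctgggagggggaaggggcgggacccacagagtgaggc
Counted from the start site as 0, the matches begin at -116, -58 and -44. Of 32851 promoter windows in the table, each reaching from 250 bases before to 50 after a start, 29 (0.0883%) hold 3 or more such matches.

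Windows were given for 9 of the 10 clock genes, and for Per2 none was used. The E-box CACGTG, which reads the same on both strands, stood in the windows of 4 of these 9 genes, Ciart, Cry1, Per1 and Tef, and in those of 8.09% of all 27025 genes. The variant E′-box CACGTT stood in 2 of 9 (Cry1 and Nr1d1) against 5.44% of all genes, counting both strands. The REV-ERB and ROR element, searched as ANTNGGTCA on both strands, stood in 1 of 9 (Arntl) against 2.56%. No window of the 9 genes held the D-box TTANGTAA or the cyclic AMP element TGACGTCA, which 2.72% and 2.03% of all genes hold. The Cry1 matches to the E-box and the E′-box do not overlap, and the match in Arntl lies after its second listed start. The Per1 match lies before its first listed start, which falls inside the annotated gene. For Nr1d1 and the second listed start of Per1, the bases checked after the RefSeq start were not found in GENCODE M21 transcripts. The stretches around the matches are shown so that the flanking bases can be compared, with the match in capitals:
Cry1 E-box (chr10:85185097-85185126, minus strand): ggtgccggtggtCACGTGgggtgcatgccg
Cry1 E′-box (chr10:85185116-85185145, minus strand): acacacttcagaAACGTGaggtgccggtgg
Per1 E-box (chr11:69098771-69098800, plus strand): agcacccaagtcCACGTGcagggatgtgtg
Tef E-box, first start (chr15:81802534-81802563, plus strand): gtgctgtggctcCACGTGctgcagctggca
Tef E-box, second start (chr15:81811264-81811293, plus strand): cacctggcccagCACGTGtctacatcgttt
Nr1d1 E′-box (chr11:98775388-98775417, minus strand): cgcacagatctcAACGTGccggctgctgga
Arntl REV-ERB and ROR element (chr7:113207529-113207557, plus strand): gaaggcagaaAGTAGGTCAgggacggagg
The capitals in the Cry1 E′-box and Nr1d1 lines are the motif read on the opposite strand. A match is a description of these letters, and no binding was measured. The same E-box letters thus stand in windows of Ciart and Tef, whose itaconate libraries all lay below their control libraries, though Tef was not called. They also stand in windows of Cry1 and Per1, whose levels overlapped between the groups. The part of the E-box in these levels was not tested.

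**Figure D2:**
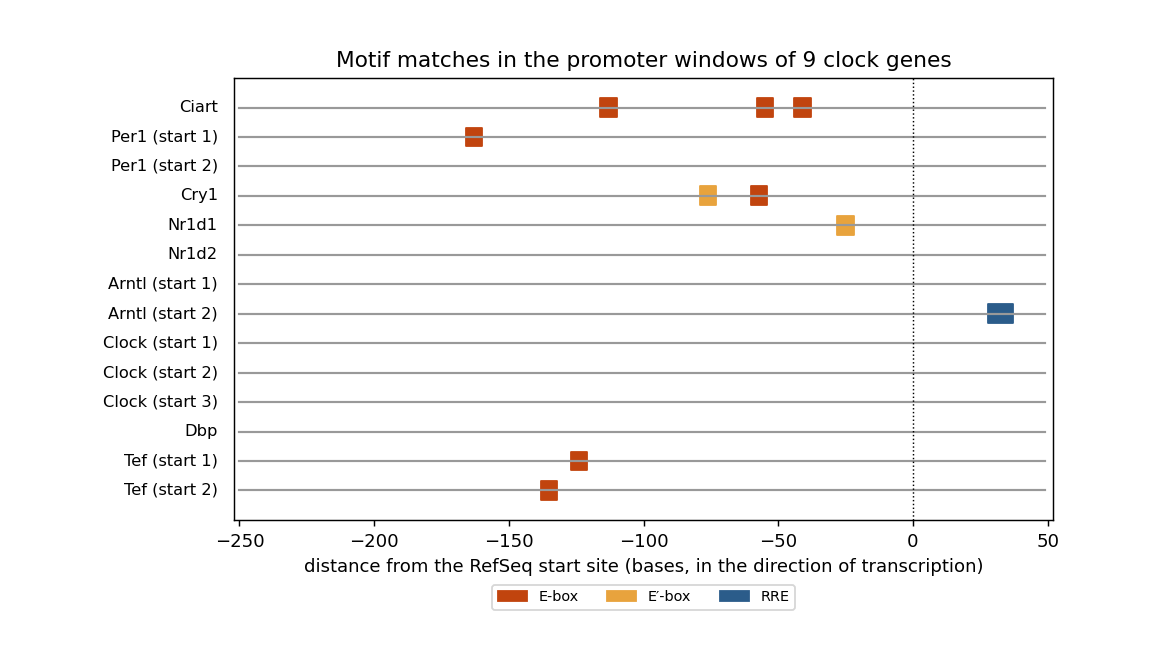
Motif matches in the promoter windows of 9 clock genes, with the distance from the RefSeq start site in bases along the horizontal axis and 1 line per start site. Orange boxes mark the E-box, yellow boxes the E′-box and blue boxes the REV-ERB and ROR element (RRE); Ciart has 3 E-box matches.

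The Per and Cry genes, whose proteins form the complex that represses BMAL1 and CLOCK, include the second called gene, Per2, and 2 genes whose groups overlapped. Per2 (chr1:91415982-91459324, minus strand) had 4.55, 4.55 and 5.41 CPM in itaconate libraries 1, 2 and 3, against 6.79, 8.26 and 6.64 CPM in control libraries 1, 2 and 3. The groups did not overlap. The means were 4.84 ± 0.49 CPM in itaconate and 7.23 ± 0.90 CPM in control libraries (SD, n = 3 each), and the fitted log2 fold change was -0.57 ± 0.15 (SE). Per2 was called lower, and it kept that call in 7 of 13 alternative settings. It lost it without itaconate replicate 1 (-0.53), without itaconate replicate 2 (-0.53) and without control replicate 2 (-0.48), and also in both fits of TPM and with effective length offsets.

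Per1 (chr11:69095217-69109960, plus strand), which also responds acutely to hormones and cyclic AMP, was the clock gene with the most counts. It had 58.2, 56.7 and 52.2 CPM in itaconate libraries against 58.7, 61.4 and 56.2 CPM in control libraries, and the groups overlapped. Its log2 fold change was -0.08 ± 0.06 (SE). Cry1 (chr10:85131700-85185064, minus strand), which encodes the cryptochrome that gives the strongest repression, had 35.2, 38.6 and 40.0 CPM in itaconate libraries against 39.7, 39.4 and 36.0 CPM in control libraries. These groups overlapped as well, and the log2 fold change was -0.01 ± 0.07 (SE).

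Because the counts of these genes in a library share its depth and scaling, the ratio of counts of a pair of genes does not depend on either. For every 100 Per1 counts there were 10.9, 13.03 and 16.1 Ciart counts in itaconate libraries, against 26.6, 27.5 and 24.7 in control libraries. Per 100 Cry1 counts, Ciart had 18.0, 19.1 and 21.01 in itaconate libraries, against 39.3, 42.9 and 38.5 in control libraries. Both ratios were lower in every itaconate library than in any control library. Per 100 Per1 counts, Per2 had 7.82, 8.03 and 10.3 in itaconate libraries, against 11.6, 13.5 and 11.8 in control libraries. Ciart was lower even relative to Per2, with 139, 162 and 156 Ciart counts per 100 Per2 counts in itaconate libraries, against 230, 205 and 209 in control libraries. The ratios reuse the counts from which Ciart and Per2 were described above, so they restate those differences and add no evidence.

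**Figure D3:**
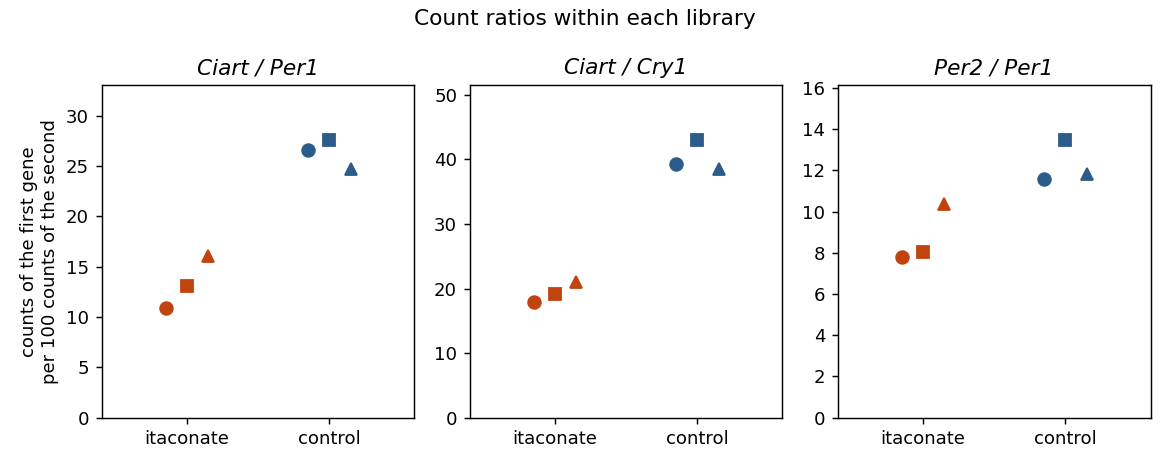
Counts of one clock gene per 100 counts of a second in each library (vertical axes start at 0), for Ciart over Per1, Ciart over Cry1 and Per2 over Per1, with itaconate (orange) left of control (blue) and marker shapes for replicates. All 3 ratios are lower in each itaconate library than in each control library.

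Nr1d1 and Nr1d2 encode REV-ERB alpha and beta, heme-binding nuclear receptors that repress Arntl. Nr1d1 (chr11:98767932-98775333, minus strand) had 5.64, 4.44 and 5.49 CPM in itaconate libraries, against 4.75, 4.11 and 2.92 CPM in control libraries. The groups overlapped, control replicate 3 was the lowest library, and the log2 fold change was 0.41 ± 0.20 (SE), not called. The gene shares 263 of its 3077 exon bases with Thra on the opposite strand, and since the strand setting of the counting is not given in the sources used here, reads of those bases cannot be told apart. Nr1d2 (chr14:18204054-18239127, minus strand) had 9.01, 10.4 and 11.4 CPM in itaconate libraries, against 9.73, 11.2 and 9.97 CPM in control libraries. Its values overlapped fully, with a log2 fold change of 0.00 ± 0.12 (SE).

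The levels of both activators of the loop overlapped between the groups. Arntl (chr7:113207465-113314126, plus strand) had 6.98, 6.49 and 6.01 CPM in itaconate libraries, against 6.20, 6.91 and 6.76 CPM in control libraries, with a log2 fold change of -0.03 ± 0.13 (SE). Clock (chr5:76209868-76304792, minus strand) had 15.8, 13.4 and 14.5 CPM in itaconate libraries, against 15.4, 14.4 and 11.6 CPM in control libraries, with a log2 fold change of 0.09 ± 0.12 (SE). Neither gene was called, and the standard errors leave room for small differences in either direction.

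Dbp and Tef encode the PAR bZIP factors. Dbp (chr7:45705088-45710203, plus strand), a direct target of BMAL1 and CLOCK with a strong rhythm in mouse liver, had 5.74, 3.38 and 4.59 CPM in itaconate libraries, against 4.08, 4.49 and 4.29 CPM in control libraries. The itaconate libraries spread to both sides of the control libraries, and the log2 fold change was 0.10 ± 0.19 (SE). Dbp shares 539 of 2993 exon bases (18.0%) with Sphk2 on the opposite strand, the largest such share among the 10 genes, while the shares of Tef and Arntl were 2.45% and 0.439%. Tef (chr15:81802421-81826863, plus strand) had 12.8, 12.3 and 11.3 CPM in itaconate libraries, against 16.1, 13.9 and 14.4 CPM in control libraries. The Tef groups did not overlap, but the gene was not called, with a log2 fold change of -0.29 ± 0.10 (SE). Ciart, Per2 and Tef were thus the 3 clock genes without overlap, all lower in itaconate libraries, against 31.2% of all tested genes without overlap in either direction and 14.4% lower. Nothing is read from that count, since the genes were chosen from this contrast.

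**Figure D4:**
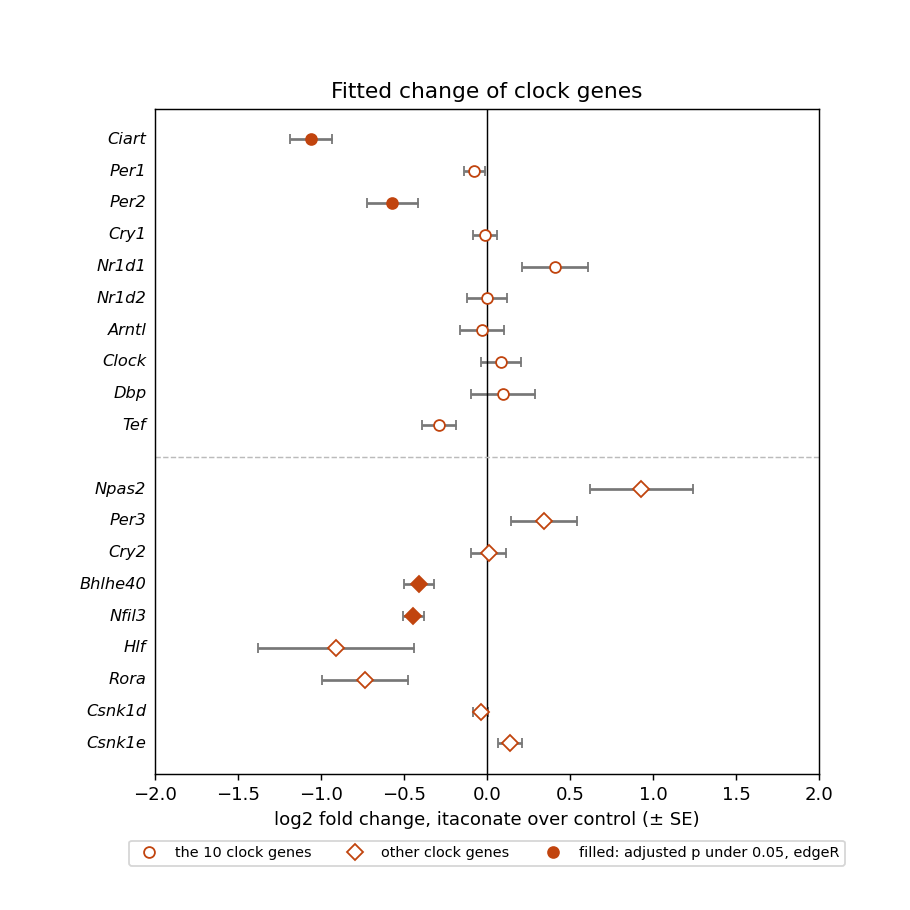
Fitted log2 fold change, itaconate over control, with its SE (horizontal axis) for the 10 clock genes (circles, above the dashed line) and 9 other clock genes fixed by name (diamonds). Ciart at -1.06 lies farthest from 0 among the circles, and filled symbols mark an adjusted p under 0.05 in edgeR's test.

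Levels of different genes are compared in TPM, which divides each count by transcript length and sets every library to the same total. In control libraries Per1 (18.3 ± 2.33 TPM), Ciart (18.0 ± 2.93 TPM) and Cry1 (17.4 ± 1.11 TPM) were the most abundant of the 10, and their ranges overlapped (SD, n = 3). In itaconate libraries the Ciart level was 8.15, 9.59 and 10.12 TPM, against 20.21, 19.12 and 14.68 TPM in control libraries. Ciart thus lay below the itaconate ranges of Cry1 (15.61 to 17.06 TPM) and Per1 (14.59 to 16.80 TPM), with which it overlapped in control cells. Next came Tef, at 3.82 ± 0.11 TPM in itaconate and 5.37 ± 0.74 TPM in control libraries, and Dbp, at 5.26 ± 1.46 TPM in itaconate and 5.09 ± 0.19 TPM in control libraries, which overlapped in control libraries. Nr1d2 and Arntl followed, at 3.34 to 3.45 and 3.09 to 3.59 TPM in control libraries. The lowest levels in control libraries were those of Clock, Nr1d1 and Per2, whose neighbouring ranges overlapped. Per2 was last in both groups, at 1.04 ± 0.10 TPM in itaconate and 1.62 ± 0.23 TPM in control libraries. Its counts of 82 to 126 in itaconate and 171 to 209 in control libraries are among the smaller ones, and they limit its precision.

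**Figure D5:**
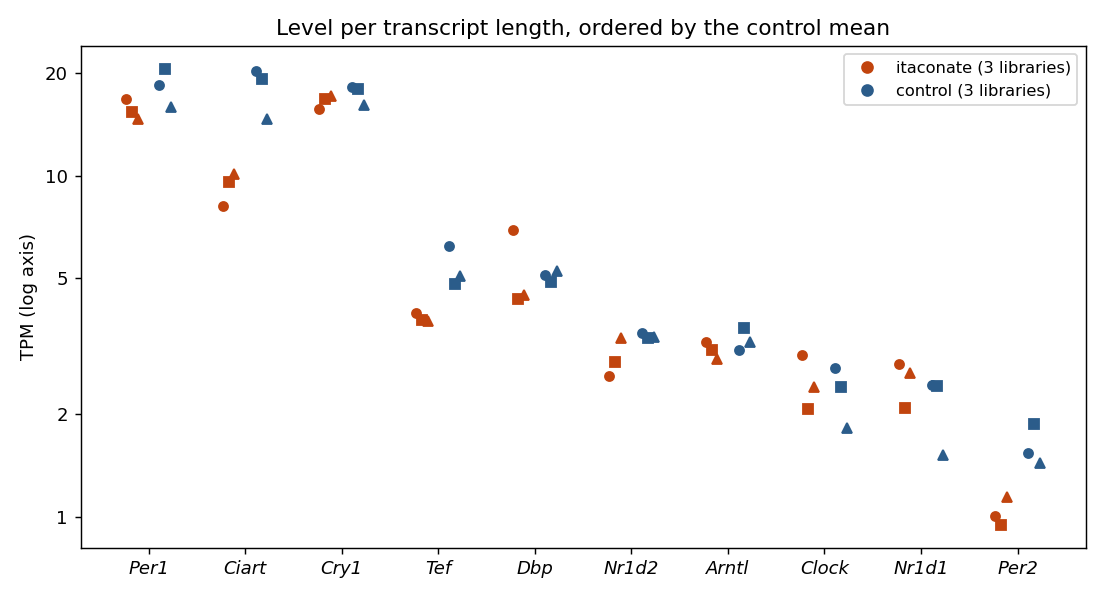
TPM (logarithmic vertical axis) of the 10 clock genes in each library, ordered from left to right by the control mean, with itaconate (orange) left of control (blue) for each gene and marker shapes for replicates. Ciart lies with Per1 and Cry1 in control libraries and between them and the other genes in itaconate libraries.

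The genes whose pattern over the 6 libraries was most like that of Ciart were found by the root mean square difference of log2 CPM, each gene centred on its own mean, among 8066 genes with a gene name and a mean of at least 10 CPM over the 6 libraries. They were Cd81 (0.109), Txnip (0.129), Ak4 (0.149), Bnip3l (0.163) and Slc2a3 (0.169), where 0 would be an identical pattern. Cd81 encodes a tetraspanin of the cell surface, Txnip an inhibitor of thioredoxin and of glucose uptake, Ak4 a mitochondrial adenylate kinase, Bnip3l a mitophagy receptor and Slc2a3 a glucose transporter. Their log2 fold changes were -0.94, -0.90, -0.87, -0.91 and -1.13. Since the Ciart pattern is mostly its difference between the groups, the measure favours genes with a like difference. The list therefore largely restates the contrast from which Ciart was chosen and is no evidence of shared regulation. Cd81 had 6.58, 7.93 and 7.42 CPM in itaconate libraries and 13.9, 15.5 and 12.8 CPM in control libraries, close to the Ciart levels. Among the other clock genes Per2 was nearest to Ciart (0.261) and Nr1d1 farthest (0.774).

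Beyond the 10 genes, 56 further genes of the clock pathway were listed as activators, repressors, ROR receptors, D-box factors, kinases, ubiquitin ligases and deubiquitinases, and coregulators. Of the 51 that could be tested, 6 were called lower and 0 higher (11.8% called, against 12.0% of all tested genes), with a median log2 fold change of -0.03 against 0.01 for all genes. The count was 2 without control replicate 2 and 3 without itaconate replicate 2, all lower. Without itaconate replicate 3, 1 was called higher and 3 lower. With no expression filter 1 was higher and 9 lower, and with the replicate block 1 was higher and 10 lower. The share called in either direction is thus close to that of all tested genes. By direction, 5.36% of all tested genes were called lower and 6.68% higher. All 6 pathway calls of the reported fit were lower, which did not hold in every alternative setting.

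The called genes outside the 10 were repressors and coregulators. Nfil3, which encodes a repressor that competes with DBP and TEF at D-boxes, had 33.5, 34.0 and 33.6 CPM in itaconate libraries, against 43.4, 47.2 and 46.8 CPM in control libraries. All itaconate libraries lay below all control libraries, the log2 fold change was -0.44 ± 0.06 (SE), and the adjusted p was 0.000594, a call kept in all 13 alternative settings. Bhlhe40, which encodes the E-box repressor DEC1, had 181, 211 and 220 CPM in itaconate libraries, against 242, 277 and 293 CPM in control libraries. Its groups did not overlap either, and its log2 fold change was -0.41 ± 0.09 (SE, adjusted p = 0.0236). The Bhlhe40 call was lost without itaconate replicate 2 (-0.43) or control replicate 2 (-0.40). Its relative Bhlhe41 averaged 0.198 CPM in itaconate and 0.226 CPM in control libraries, too low for the test.

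Of 21 coregulators 4 were lower and 0 higher, against 5.36% lower and 6.68% higher among all tested genes. Dhx9, an RNA helicase found with PER proteins, averaged 392 CPM in itaconate and 463 CPM in control libraries (log2 fold change -0.24 ± 0.05, adjusted p = 0.00692). The Dhx9 call was lost in both fits of TPM. Sfpq, an RNA-binding protein that joins the PER complex, averaged 578 CPM in itaconate and 673 CPM in control libraries (log2 fold change -0.22 ± 0.05, adjusted p = 0.0107). The Sfpq call was lost without itaconate replicate 3 (-0.19) or control replicate 2 (-0.21), and also in both fits of TPM and with effective length offsets. The other lower coregulators, named after their values were seen, were the acetyltransferase gene Ep300 (-0.32 ± 0.09) and the histone demethylase gene Kdm5a (-0.25 ± 0.06). None of 10 tested kinases and none of 10 tested ubiquitin ligases and deubiquitinases was called by edgeR or DESeq2, where 12.0% of all tested genes were called by edgeR. In edgeR 3 of the kinases and 1 of the ligases and deubiquitinases had an unadjusted p under 0.05, as did 3271 of all 12350 genes. The casein kinase genes Csnk1d and Csnk1e, which encode the kinases that phosphorylate PER proteins, had log2 fold changes of -0.04 (adjusted p = 0.655) and 0.14 (adjusted p = 0.236, below 0 in both fits of TPM).

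Paralogs of the 10 genes did not pass the test. Npas2, which can stand in for Clock, had 3.61, 2.89 and 1.67 CPM in itaconate libraries, against 1.74, 1.30 and 1.21 CPM in control libraries, and the groups overlapped through itaconate replicate 3. Its log2 fold change was 0.93 ± 0.31 (SE, adjusted p = 0.0650), and it passed the threshold in 3 of 13 alternative settings, without itaconate replicate 3 (1.19), with no expression filter (0.93) and with the replicate block (0.89). Per3 had 3.41, 3.44 and 3.09 CPM in itaconate libraries, against 2.67, 2.61 and 2.54 CPM in control libraries, without overlap but with an adjusted p of 0.297. Cry2 averaged 13.10 CPM in itaconate and 13.01 CPM in control libraries (adjusted p = 0.968). Of the ROR receptors, which activate Arntl at the element that REV-ERB proteins bind, Rora had 1.24, 2.16 and 2.45 CPM in itaconate libraries, against 2.90, 3.24 and 3.62 CPM in control libraries (adjusted p = 0.0814). Hlf, the remaining PAR bZIP gene, averaged 0.351 CPM in itaconate and 0.656 CPM in control libraries (adjusted p = 0.239).

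Genes known to cycle in many mouse tissues were examined as outputs. Of 12 tested, 3 were lower and 0 higher (25% called). Of all tested genes 12.0% were called, 5.36% lower and 6.68% higher. Nampt, the rate-limiting enzyme of NAD salvage and an E-box target, had 159, 170 and 180 CPM in itaconate libraries, against 218, 204 and 213 CPM in control libraries. The groups did not overlap, the log2 fold change was -0.32 ± 0.05 (SE), the adjusted p was 0.00156, and the call held in all 13 alternative settings. Tsc22d3, which encodes the glucocorticoid-induced protein GILZ, had 11.9, 12.9 and 10.8 CPM in itaconate libraries, against 16.8, 17.2 and 18.4 CPM in control libraries. It too was without overlap, with a log2 fold change of -0.56 ± 0.10 (SE, adjusted p = 0.00264). The third was Pfkfb3, a regulator of glycolysis named after its values were seen, at -0.29 ± 0.06 (adjusted p = 0.00634).

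Pathways known to act on the Per genes or on the loop were covered by lists of their components or targets, to be read against the 12.0% of all tested genes that were called, 6.68% higher and 5.36% lower. Among 8 tested glucocorticoid-induced genes 2 were called (25%). Tsc22d3 was lower, as above, and Fkbp5, a chaperone cofactor of the glucocorticoid receptor, was higher, at 197 CPM in itaconate and 164 CPM in control libraries (log2 fold change 0.26 ± 0.05, adjusted p = 0.00412). Among 12 tested genes of cyclic AMP signalling through CREB, 1 was called (8.33%, below the share of all genes), the coactivator gene Crtc1 (0.29 ± 0.09, adjusted p = 0.0439), and DESeq2 called 0. That call was lost in 9 of 13 alternative settings, 5 of them leaving out 1 library, with log2 fold changes of 0.21 to 0.36 over the fits without 1 library. Among 7 tested genes of the heat shock response, whose factor HSF1 can induce Per2, 2 were called (28.6%), both lower. The list did not fall as a whole, with a median log2 fold change of 0.06. Hsf1 (0.11), Hsf2 (0.20), Dnajb1 (0.06) and Hspa8 (0.08) had positive log2 fold changes and Hspa1a (-1.17) a negative one, none called. The chaperone gene Hsph1 was lower, at 193 CPM in itaconate and 241 CPM in control libraries (-0.32 ± 0.05, adjusted p = 0.00115). Hspa1b was also lower (-0.79 ± 0.23, adjusted p = 0.0349), but it lost its call whenever any 1 library was left out (-0.83 to -0.74). Its call was also lost in both fits of TPM and with effective length offsets, and its reads may be divided with its near-identical neighbour Hspa1a. Among 12 tested genes of heme synthesis and breakdown, heme being the ligand of both REV-ERB receptors, 1 was called (8.33%, below the share of all genes). It was Alas1, the first enzyme of heme synthesis, lower in itaconate libraries (-0.30 ± 0.08, adjusted p = 0.0203). Its call was lost without itaconate replicate 1 (-0.28), itaconate replicate 3 (-0.28) or control replicate 2 (-0.23). The Alas1 call was also lost in both fits of TPM and with effective length offsets. Among 8 tested relatives of BMAL1 and CLOCK in the bHLH-PAS family 1 was called (12.5%, close to the share of all genes). It was Ahr, the aryl hydrocarbon receptor gene, higher at 3.22, 3.05 and 3.35 CPM in itaconate libraries against 1.78, 1.26 and 1.75 CPM in control libraries. The Ahr groups did not overlap (0.99 ± 0.24, adjusted p = 0.0144), and the call was lost without itaconate replicate 3 (0.96) or control replicate 2 (0.85). That call was also lost in both fits of TPM and with effective length offsets.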

How the data were processed

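RNA-seq of 6 libraries, 3 from itaconate-treated and 3 from NaCl-treated CD8+ T cells, was analysed from the authors' gene tables. Per the file headers, which have RSEM's column names, the authors deposited for each gene an expected count (an estimate that need not be whole), TPM and FPKM (both scaled to transcript length and library size), with an abundance-weighted transcript length and an effective length in bases. Bowtie 0.12.2 and the builds mm8 and mm10 appear, without their roles, in the submitters' processing notes. For the RSEM version, the annotation and the strand setting no value is stated, and these affect genes that overlap others. Between 5.99% and 6.93% of genes per library had an expected count over 0.001 from a whole number, and all were rounded.

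CPM used TMM factors of 0.9866 to 1.017. Itaconate was compared with control by edgeR 4.0.16's quasi-likelihood test (R 4.3.3, two-sided, robust) on all 6 libraries, after a filter with minimum count 10 and minimum total 15, with Benjamini-Hochberg adjustment over 12350 genes. Adjusted p-values are from this test. Alternatives were RLE factors, DESeq2 1.42.0, no filter, limma 3.58.1 on log2(TPM + 1) and log2(TPM + 0.1), effective length offsets, a replicate block, and each library left out in turn. Libraries of a group differed by 4.843 to 16.85 in chi-square per gene, so none was a copy of another. Positions are from GENCODE M21 (GRCm38), in which 99.83% of gene identifiers were found, and promoters from RefSeq (GRCm38.p6).

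The 10 genes and all lists were chosen with earlier results of these data known, so no list supports itself. All 10 genes, 12 further genes fixed by name, and up to 2 risers and 2 fallers of smallest adjusted p per list are named, as are the 5 genes most like Ciart; a few of the fixed genes are not reported here. Likeness used log2 CPM with a prior count of 2. Cell marker genes with their summed levels are given as a check of cell type.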

Additional observations from a re-analysis of the deposited data

How the results depend on the processing

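The decrease of Ciart kept its direction and its call under all 13 alternative settings, as did those of Nfil3, Nampt and Tsc22d3, whereas Per2 was called in 7. The number of genes called was 1487, against 340 in limma on log2(TPM + 1), 356 on log2(TPM + 0.1), 567 with effective length offsets, and 726 to 1400 with 1 library left out (726 when control replicate 2 was omitted, 835 when itaconate replicate 3 and 896 when itaconate replicate 2 was). Of called genes 55.5% were higher, against 39.1% and 39.6% in the fits of TPM. The median log2 fold change of all 12350 tested genes was 0.006, against -0.050 on log2(TPM + 1) and -0.057 on log2(TPM + 0.1). In both fits of TPM 1 of the 10 clock genes, 2 clock pathway genes outside them and 1 glucocorticoid-induced gene were called, and 0 of the CREB, heat shock, heme and bHLH-PAS lists. With offsets these counts were 1 clock gene, 3 pathway genes, 1 heat shock gene, and 0 of the CREB, heme and bHLH-PAS lists. Without an expression filter 10 pathway genes and 2 heme genes were called, and DESeq2 called 0 CREB genes. With 1 library left out, the 10 clock genes gave 1 to 2 calls, the pathway list 2 to 8, the glucocorticoid list 2, the CREB and bHLH-PAS lists 0 to 1, the heat shock list 1, the heme list 0 to 2 and the rhythmic outputs 3 to 4. The sign of Cry2 turned, to -0.0127 on log2(TPM + 1), -0.0170 on log2(TPM + 0.1) and -0.0807 to 0.0720 over the fits that left out 1 library, below 0 without itaconate replicate 1 and without control replicate 3. That of Csnk1e turned to -0.0557 on log2(TPM + 1) and -0.0580 on log2(TPM + 0.1). Among the 10 clock genes, Nr1d2, at 0.00, kept its sign in 2 of 13 settings and had -0.16 and -0.21 in the fits of TPM and -0.15 with offsets. On log2(TPM + 0.1) Per1 had -0.22, against -0.08 as reported, and Tef had -0.47, against -0.29, while on log2(TPM + 1) Nr1d1 had 0.18, against 0.41. The uncalled differences of Arntl, Clock and Dbp changed sign in 1 setting each, and that of Cry1 in 2. The cause of these differences was not tested. In the narrower window, 100 bases before to 50 after a start, the E-box stood in 2 of 9 genes (Ciart and Cry1), not 4. By FPKM as by TPM, Ciart ranked 2 of the 10 genes in control libraries. Within a library both measures order the genes alike by construction, so this is no separate check.

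Replicate numbers are shared between the groups, but the deviations of same-numbered libraries correlated at only 0.113, 0.0305 and 0.00337, and 1 of 3 itaconate libraries correlated best with its own number, so the numbers were not taken as pairs. With the replicate block 2419 genes, 3 of the 10 clock genes (Tef added, at -0.29), 11 pathway genes, 3 CREB genes and 3 heme genes were called.

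Clock genes with few counts, such as Dbp, Nr1d1, Per2 and Arntl, have standard errors of 0.13 to 0.20 on the log2 scale, and a difference of 0.41 in Nr1d1 was not called.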
